A study of Homo sapiens with 6 samples.

Results

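Cholesterol and fatty acid genes were followed in WI-38 fibroblasts driven into senescence by RASv12 and in growing WI-38 fibroblasts. WI-38 is a normal diploid strain from human fetal lung, and RASv12 is a RAS protein held in its active form. The list names 34 genes: 17 of sterol synthesis, 9 of fatty acid and glycerolipid synthesis, 4 regulators and 4 of cholesterol handling. Of these, 30 were measured, out of 11963 genes named on the array, and FDFT1, CYP51A1, FADS1 and ACSL3 were not analysed here. Each gene was read from its brightest probe set, meaning the set of short probes with the highest mean over all 6 arrays.

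Both groups had 3 samples, 1 array each, and the same WI-38 background. The first, titled WI-38OERAS, overexpressed RASv12 and was labelled senescent. The second carried the genotype label wild type and was labelled growing. The protocol text, shared by all samples, describes retroviral infection and culture at 3% oxygen, and it does not say whether the growing cells received an empty vector, so infection and RASv12 cannot be told apart. The labels used here name neither the RAS gene, nor its promoter, nor the days after infection. The dye label was Cy3 for every RASv12 sample and Cy5 for every control sample, so dye and group cannot be told apart if these labels describe the hybridization. The array type takes a single label, and how the dyes were used is unclear. Whether the 3 samples in each group came from separate cultures is not stated, so the p-values reflect how far these 6 samples scatter within groups, and that scatter may be technical.

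HRAS, a gene used in many models of RAS senescence, had intensities of 816, 753 and 989.7 in RASv12 samples, against 222, 189 and 234 in control samples. All 10 fibroblast markers lay above the low bacterial controls on every array, while 8 of them were called down in RASv12 cells and VIM and FAP did not pass. Their summed intensity ran from 7916 to 9341 in RASv12 samples and from 19253 to 21895 in control samples. Of 24 markers of epithelial, endothelial, leukocyte, fat and liver cells, 2 rose and 3 fell, and PTPRC, CD14, CDH5, EPCAM, ALB and ADIPOQ, which define these cell types, lay within the low controls on all arrays. CIDEC, a fat marker, lay above the low controls on all arrays, and SFTPB on all RASv12 arrays and 2 control arrays. KRT19, TEK and FABP4 lay above them on all control arrays and on 0, 2 and 1 RASv12 arrays. CD3E did so on 2 RASv12 arrays, PECAM1 on 1 RASv12 array, and SFTPC on 1 RASv12 array and 2 control arrays. Summed intensities of these lists in RASv12 and control samples were 115 to 153 and 147 to 178 for epithelial, 47.2 to 99.8 and 102 to 128 for endothelial, 31.7 to 57.7 and 25.7 to 54.6 for leukocyte, 54.8 to 124 and 138 to 151 for fat, and 130.4 to 165 and 25.4 to 47.7 for liver markers. The liver sum was carried by SERPINA1, which other cells also make and which stood at least 4.48-fold above the control samples in RASv12 samples. The part of these shifts in the results was not tested. Hybridization controls, which are added to the sample before it goes on the array, were dimmer on RASv12 arrays, with a mean log2 intensity of 7.73 to 7.87 against 8.13 to 8.17 on control arrays.

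Cells make cholesterol from acetyl-CoA through mevalonate, isoprenoids, squalene and lanosterol, and they make fatty acids from the same acetyl-CoA. The genes of both branches are driven by the transcription factors that SREBF1 and SREBF2 encode, which are made as membrane proteins. When sterols are plentiful, INSIG proteins hold these precursors and their escort SCAP in the endoplasmic reticulum. When sterols are scarce, the precursors move to the Golgi, are cut by a pair of proteases and release a fragment that enters the nucleus. The protein from SREBF1 acts more on fatty acid genes and the one from SREBF2 more on sterol genes.

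In RASv12 cells, the sensor gene INSIG1 and the lysosomal cholesterol exporter NPC1 were the measured members with the largest rises, and the desaturases SCD and FADS2 had the largest falls, ahead of SREBF1. Of 15 measured enzymes of the sterol branch, 1 rose, 3 fell and 11 did not pass. Of the 7 measured genes of the fatty acid and glycerolipid branch, 2 fell and 5 did not pass. Over the whole list 5 of 30 genes rose and 7 fell, so 40.0% were called, where 29.1% of all genes were called (13.8% up and 15.3% down). The 5 rises include SREBF2, whose probe sets disagree, and the fall of SCD rests on 1 of its 4 probe sets. Calls are from limma, with Benjamini-Hochberg adjusted p under 0.05 over all genes. All log2 changes are RASv12 minus control on quantile-normalized log2(intensity + 16), with standard errors and n = 3 samples per group, and they understate the change of dim genes. A lower signal in these bulk samples may come from fewer cells that express a gene or from less RNA per cell, which cannot be told apart.

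**Figure D1:**
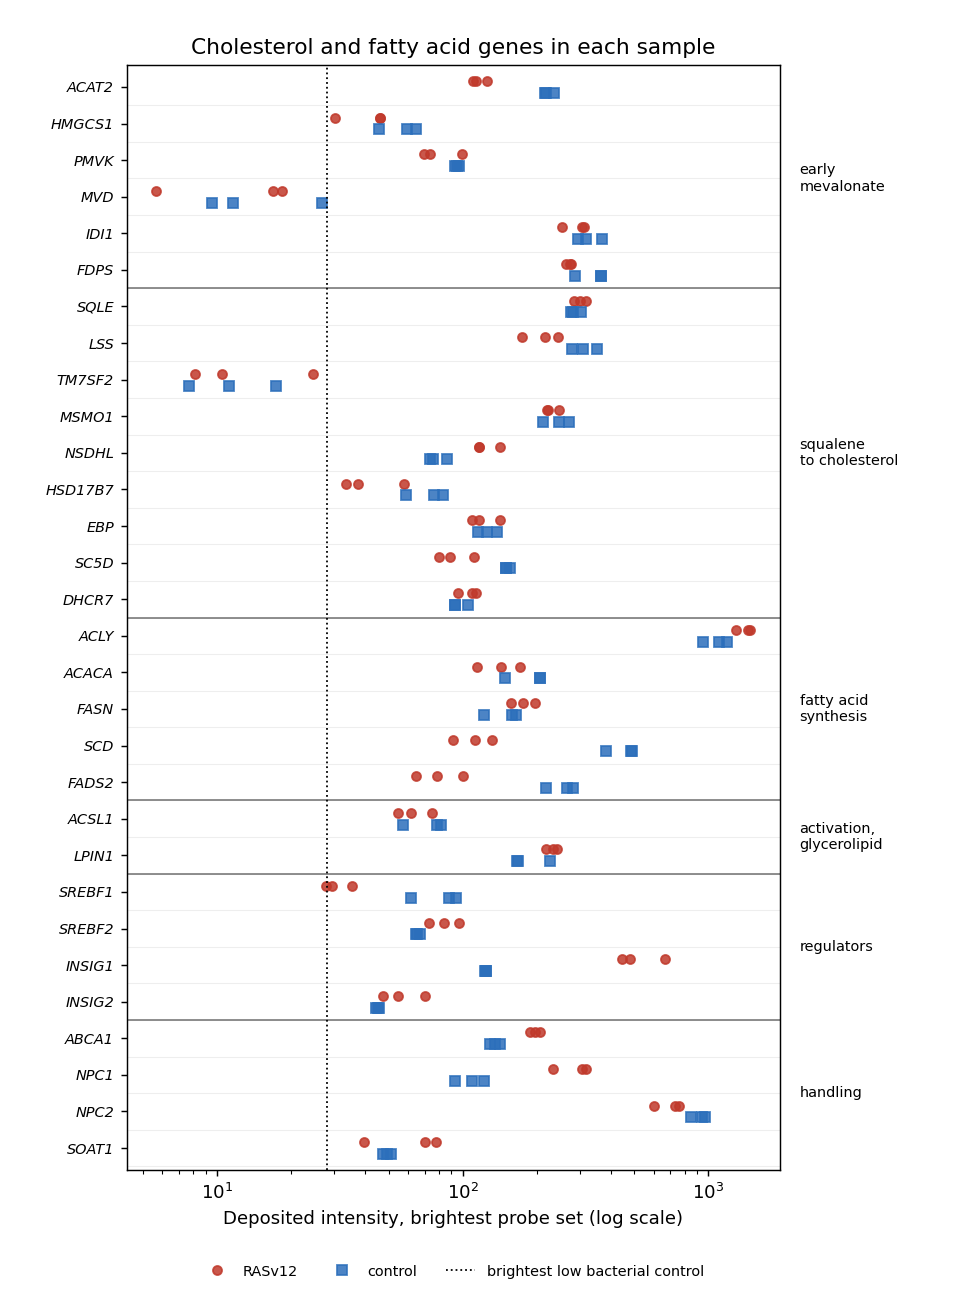
Deposited intensity (log axis) of the 30 measured genes in each sample, with RASv12 samples as circles above control samples as squares, and a dotted line at the brightest low bacterial control (27.98). INSIG1 and NPC1 circles lie to the right of all their squares, SCD, FADS2 and SREBF1 circles lie to the left, and MVD and TM7SF2 lie below the line in all samples.

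Of the 30 genes, 27 lay above the brightest low bacterial control, at an intensity of 27.98, in all 6 samples. MVD and TM7SF2 lay under it in all 6, and SREBF1 in 1 RASv12 sample. The groups did not overlap in intensity for 16 of the 30 genes (53.3%), where 41.7% of all genes did not overlap. All 12 called genes were among these, and the other 4 were FDPS, HSD17B7, ACLY and INSIG2. Called changes of at least 2-fold on the log2 scale used here were seen for 4 members, INSIG1 and NPC1 up and SCD and FADS2 down, where 8.61% of all genes passed that mark.

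Among the regulators, INSIG1 encodes the endoplasmic reticulum protein that retains the SREBP precursors and is itself a target of them. INSIG1 had intensities of 482, 446 and 667 in RASv12 samples, against 124, 125 and 124 in control samples. Every RASv12 sample was more than 3 times as bright as any control sample. The means were 531 ± 119 in RASv12 cells and 124 ± 0.572 in control cells (SD, n = 3 each), a 4.28-fold difference, and the log2 change was 1.95 ± 0.17 with adjusted p = 0.00029. Both other INSIG1 probe sets rose too, with log2 changes of 1.43 ± 0.14 and 2.04 ± 0.15 (adjusted p = 0.00056 and 0.00016 over all probe sets). The 18 members read by several probe sets had 27 others, of which 6 passed, where 24.3% of all probe sets did.

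INSIG2 encodes a second retention protein, which is not known as a strong SREBP target. INSIG2 intensities were 70.0, 54.8 and 47.3 in RASv12 samples, against 45.7, 44.2 and 45.1 in control samples. The groups did not overlap, but 1 RASv12 sample was close to the controls, and the log2 change of 0.30 (95% interval -0.064 to 0.67) had adjusted p = 0.20. Without RASv12 replicate 3 it passed, at 0.46 with adjusted p = 0.049.

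SREBF1, whose protein drives fatty acid genes, had intensities of 29.3, 35.6 and 27.9 in RASv12 samples, against 94.1, 61.6 and 88.2 in control samples. The RASv12 values sat close to the low controls and below all control samples. SREBF1 fell by 0.997 on the log2 scale (SE 0.17, adjusted p = 0.0057), and the mean intensity was 2.63-fold lower. SREBF2, whose protein drives sterol genes, had intensities of 83.7, 73.1 and 96.3 in RASv12 samples, against 64.7, 67.1 and 65.2 in control samples. This brightest probe set was called up, by 0.36 ± 0.10 with adjusted p = 0.041, but the other SREBF2 probe set ran the opposite way, with means of 61.3 in RASv12 cells and 88.5 in control cells and a log2 change of -0.38 (adjusted p = 0.087). The mean of both gave -0.011, so the direction of SREBF2 is not settled, although its brightest probe set is counted among the rises. Leaving out RASv12 replicate 1 or 3 or any control replicate also ended the call, with adjusted p from 0.092 to 0.11, as did the replicate number as a block (0.10).

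**Figure D2:**
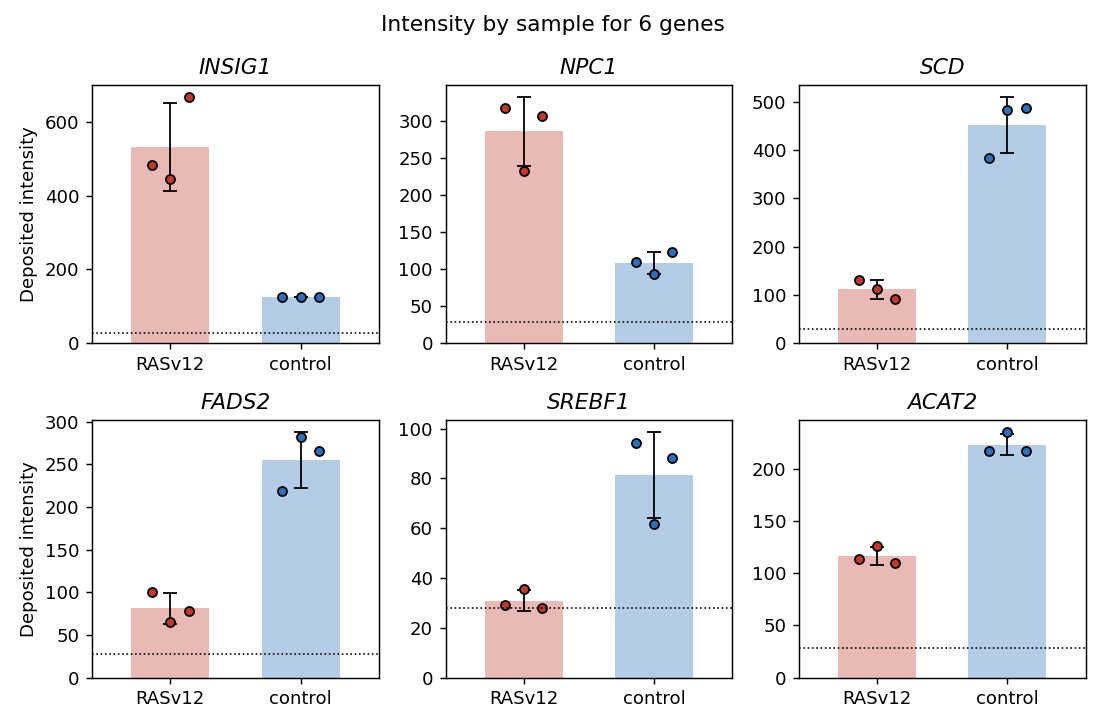
Deposited intensity of 6 genes in each sample (points), with bars at the group mean, error bars of 1 SD and n = 3 per group, RASv12 left of control, and a dotted line at the brightest low bacterial control. The groups do not overlap for any of the 6, with INSIG1 at 531 in RASv12 cells against 124 in control cells and SCD at 111 against 452.

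The stretches before the start sites of INSIG1, SREBF2 and SCD are printed because these genes had the largest rise, a disagreement between probe sets and the largest fall, and each is a textbook target of the SREBP factors. Each is the 250 bases before the gene's start from RefSeq (GRCh38.p14), 5′ to 3′ on the gene's strand. INSIG1 lies at chr7:155297628-155297877 on the plus strand, SREBF2 at chr22:41832855-41833104 on the plus strand and SCD at chr10:100346983-100347232 on the plus strand. Capitals mark matches, on either strand, to TCACNCCAC (a core of the sterol regulatory element), CCAAT (the box that the SREBP partner NF-Y binds) and CACGTG (an E-box), and no match in these 3 overlaps another.
INSIG1: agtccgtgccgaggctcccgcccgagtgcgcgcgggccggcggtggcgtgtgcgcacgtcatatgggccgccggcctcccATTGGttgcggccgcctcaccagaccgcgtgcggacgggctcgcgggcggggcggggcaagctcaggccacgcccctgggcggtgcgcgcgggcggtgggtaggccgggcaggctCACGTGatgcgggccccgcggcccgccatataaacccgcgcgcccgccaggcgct
SREBF2: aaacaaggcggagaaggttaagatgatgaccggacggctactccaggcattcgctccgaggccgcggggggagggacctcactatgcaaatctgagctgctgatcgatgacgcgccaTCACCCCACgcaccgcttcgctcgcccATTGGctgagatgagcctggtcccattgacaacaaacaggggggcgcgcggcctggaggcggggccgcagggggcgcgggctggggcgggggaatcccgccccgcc
SCD: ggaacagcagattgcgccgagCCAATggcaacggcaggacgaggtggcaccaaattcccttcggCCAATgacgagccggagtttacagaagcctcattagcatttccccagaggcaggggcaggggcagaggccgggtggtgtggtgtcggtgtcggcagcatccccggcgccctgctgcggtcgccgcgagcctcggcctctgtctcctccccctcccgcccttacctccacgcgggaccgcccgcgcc

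The INSIG1 stretch holds 1 CCAAT box and 1 E-box, that of SREBF2 1 sterol regulatory element and 1 CCAAT box, and that of SCD 2 CCAAT boxes. RefSeq windows of the same length were read for 27 of the 30 genes, 44 windows in all, since some genes have several starts. ACAT2, FASN and SQLE were not among the genes read, so the member shares do not cover them. Windows on 1 chromosome were left out for members and not for all genes, so the shares below come from unlike sets of windows. The sterol element core occurred in 2 of the 44 windows, those of SREBF2 and ACSL1, or 4.55%, where 0.883% of 35116 windows of all genes held it. The CCAAT box occurred in 24 of the 44 windows (54.5%), from 20 of the 27 genes, against 32.0% of all windows, and the E-box in 4 (9.09%), those of INSIG1, ABCA1 and SC5D, against 6.34%. Genes with a CCAAT box included INSIG1 and NSDHL, which rose, and SREBF2, called up on its brightest probe set. They also included SCD, LSS, SC5D and NPC2, which fell, and genes that did not pass. A match is a run of letters and not a measured site. Other spellings and bases outside these windows were not searched, so a window without a match does not show that a gene lacks an element.

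The sterol branch begins with 6 genes that build isoprenoid units from acetyl-CoA. ACAT2, the cytosolic thiolase that joins a pair of acetyl-CoA molecules, had intensities of 114, 126 and 110.0 in RASv12 samples, against 217, 235 and 218 in control samples. No RASv12 sample came near a control sample, and ACAT2 fell by 0.83 on the log2 scale (SE 0.097, adjusted p = 0.0011). The other 5 had log2 changes below 0 but did not pass. HMGCS1, which makes HMG-CoA, was at -0.31 (adjusted p = 0.23) on its brightest probe set and at 0.17 on the other. PMVK and MVD, which act on phosphorylated mevalonate, were at -0.15 and -0.087, and MVD lay within the low controls on every array. IDI1, which isomerises the isoprenoid unit, was at -0.18 on its brightest probe set. The other IDI1 probe set was at -0.37 (adjusted p = 0.074), with groups that did not overlap. Both are of a type that can also bind related transcripts. FDPS, which makes farnesyl pyrophosphate, was at -0.33 with adjusted p = 0.092. FDPS intensities were 276, 263 and 273 in RASv12 samples, against 365, 286 and 364 in control samples, and without control replicate 2 it passed at -0.44 (adjusted p = 0.030).

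Of the 9 measured genes that turn farnesyl units into cholesterol, NSDHL rose and SC5D and LSS fell. NSDHL, a dehydrogenase that helps remove methyl groups from the sterol ring, had 117, 116 and 141 in RASv12 samples, against 74.0, 86.3 and 75.8 in control samples. All RASv12 samples were brighter, and NSDHL rose by 0.63 ± 0.11 with adjusted p = 0.0054, while its dimmer probe set was at 0.19 and did not pass. SC5D, the desaturase near the end of the pathway, had 88.6, 80.2 and 111 in RASv12 samples, against 150.2, 149 and 156 in control samples. SC5D fell by 0.60 on the log2 scale (SE 0.11, adjusted p = 0.0084), and its only other probe set was within the low controls. LSS, which closes the ring to give lanosterol, had 175, 217 and 244 in RASv12 samples, against 278, 309 and 353 in control samples. LSS fell by 0.53 on the log2 scale (SE 0.15) with adjusted p = 0.039, and leaving out any sample but RASv12 replicate 3 ended that call, with adjusted p from 0.051 to 0.12. Its second probe set, above the low controls on all arrays, was at -0.15 with overlapping groups (adjusted p = 0.37), and the remaining one lay within them.

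The remaining 6 did not pass. SQLE, which puts the first oxygen on squalene, had 316, 302 and 283 in RASv12 samples, against 277, 304 and 282 in control samples. These ranges overlapped, and the interval of its log2 change ran from -0.18 to 0.25. Its other probe sets were at 0.39 (95% interval 0.071 to 0.71, adjusted p = 0.081) and -0.0097. MSMO1, which oxidises methyl groups of the ring, was at -0.084 (95% interval -0.35 to 0.18), the isomerase EBP at -0.014 (-0.29 to 0.26) and the last reductase, DHCR7, at 0.16 (-0.087 to 0.40). The other DHCR7 probe set ran the opposite way, at -0.27 with adjusted p = 0.18, with means of 87.0 in RASv12 cells and 113 in control cells that came from groups without overlap. Other EBP probe sets were at -0.30 and 0.34, with overlapping groups, and did not pass. The ketoreductase HSD17B7 had 37.4, 33.7 and 57.8 in RASv12 samples, against 83.4, 58.9 and 76.1 in control samples, with a log2 change of -0.54 and adjusted p = 0.056. It passed in 6 of 15 other settings: without RASv12 replicate 3 or control replicate 2 (adjusted p = 0.028 and 0.046), with median centring (0.028), without the dimmest genes (0.034), with the mean of probe sets (0.048) and with the replicate block (0.047). Its single probe set is of a type that can also bind related transcripts. TM7SF2, a sterol reductase, lay within the low controls throughout and no change is given.

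**Figure D3:**
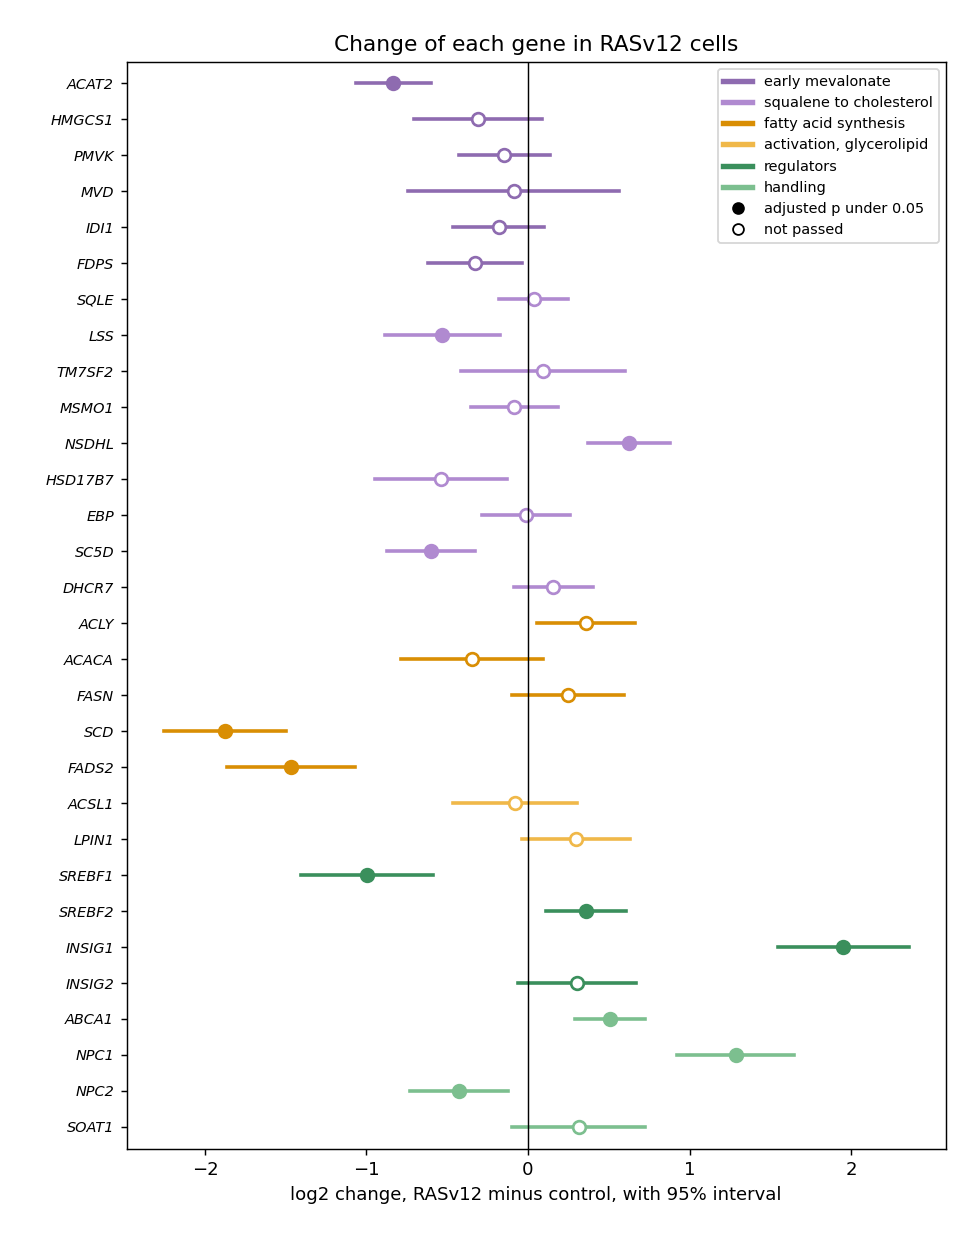
The log2 change (RASv12 minus control) of each measured gene with its 95% interval, coloured by role, filled where adjusted p was under 0.05 and open where it was not. INSIG1 (1.95) and NPC1 (1.28) lie farthest right and SCD (-1.88) and FADS2 (-1.47) farthest left, while the sterol enzymes lie between -0.83 and 0.63.

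In the fatty acid branch, both genes that fell encode desaturases, which put double bonds into fatty acids. SCD makes oleate from stearate. SCD had intensities of 131, 112 and 91.1 in RASv12 samples, against 384, 483 and 487 in control samples. The brightest RASv12 sample was under the dimmest control sample by more than 2-fold. SCD fell by 1.88 on the log2 scale (SE 0.16, adjusted p = 0.00025), a 4.06-fold lower mean. The other 3 SCD probe sets did not show this: the next brightest had means of 160.1 in RASv12 cells and 206 in control cells with a log2 change of -0.30 (adjusted p = 0.34), and the dim remaining ones were at 0.053 and 0.086 with wide spread. The mean over all 4 was -0.51 with adjusted p = 0.26, so the call for SCD rests on 1 probe set. Which part of the transcript each probe set reads was not tested.

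FADS2, the first desaturase in the making of long polyunsaturated fatty acids, had 100.5, 64.8 and 78.5 in RASv12 samples, against 219, 282 and 265 in control samples. The groups lay more than 2-fold apart at their nearest samples. FADS2 fell by 1.47 on the log2 scale (SE 0.17, adjusted p = 0.00096) on the single probe set that represents it, and the mean was 3.14-fold lower.

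The genes upstream of the desaturases did not pass on their brightest probe sets. ACLY, which cuts citrate to give cytosolic acetyl-CoA, had 1480.2, 1298 and 1444 in RASv12 samples, against 1189, 1101 and 947 in control samples. The groups did not overlap, and the log2 change was 0.36 (95% interval 0.058 to 0.66) with adjusted p = 0.078. Both other ACLY probe sets passed, at 0.76 ± 0.16 and 0.53 ± 0.14, and so did the mean of all 3, at 0.55 with adjusted p = 0.0065. ACACA, the carboxylase that makes malonyl-CoA, had 171, 143 and 114 in RASv12 samples, against 206, 149 and 207 in control samples, with a log2 change of -0.35 and adjusted p = 0.22. FASN, the synthase that builds palmitate, had 176, 157 and 196 in RASv12 samples, against 165, 122 and 159 in control samples, and its log2 change of 0.25 had adjusted p = 0.26. The groups overlapped for both.

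ACSL1, which activates fatty acids with coenzyme A, was at -0.082 (95% interval -0.47 to 0.30), and its other probe set at 0.27 did not pass either. LPIN1, a phosphatidate phosphatase of triglyceride synthesis, had 233, 219 and 241 in RASv12 samples, against 227, 168 and 167 in control samples. Control replicate 1 stood above the other control samples, and LPIN1 was at 0.29 with adjusted p = 0.17, or 0.44 with adjusted p = 0.030 without it. Of its other probe sets, 1 was called up (0.71 ± 0.18, adjusted p = 0.032) with only 1 of 3 control samples above the low controls, and 1 was at -0.036.

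**Figure D4:**
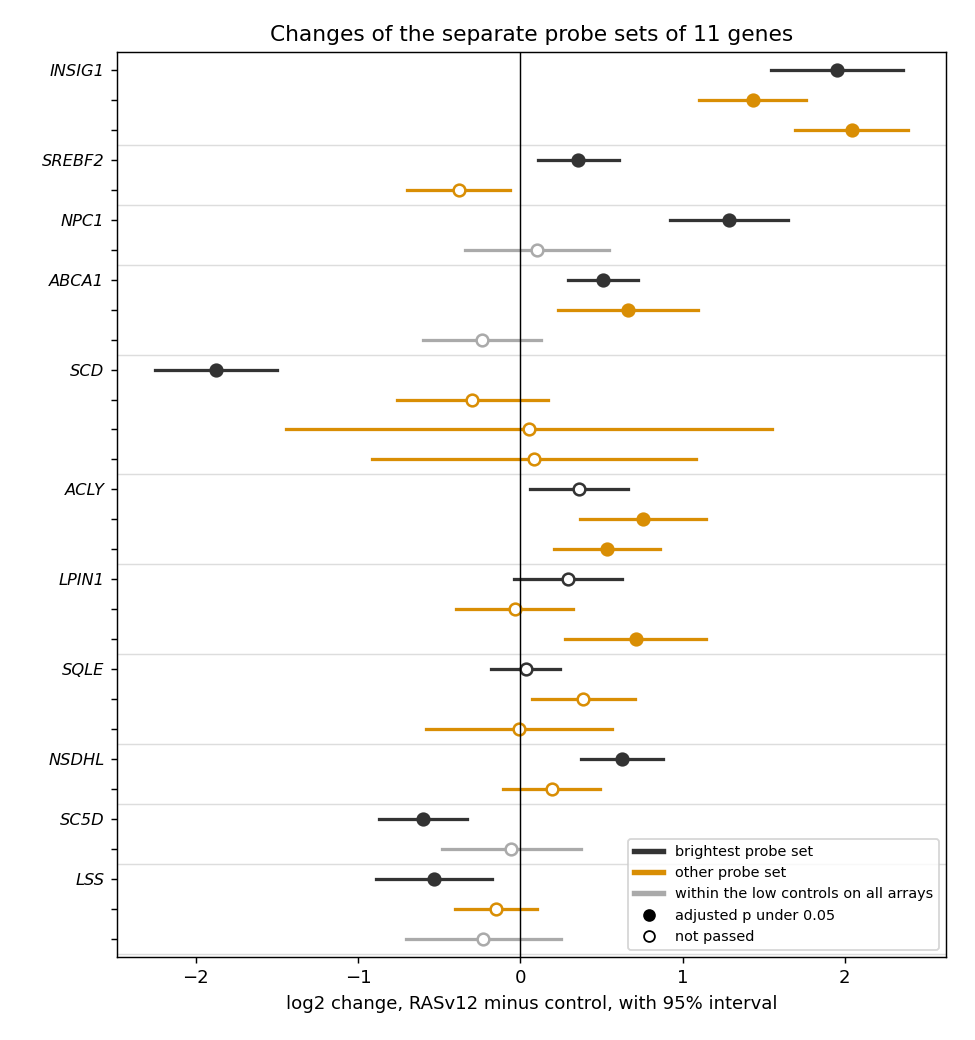
The log2 change (RASv12 minus control) and 95% interval of every probe set of 11 genes, brightest first, filled where adjusted p over all probe sets was under 0.05, and grey where all 6 samples lay within the low controls. The 3 INSIG1 probe sets lie together between 1.43 and 2.04, while those of SCD run from -1.88 to 0.086 and both of SREBF2 point opposite ways.

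Genes of cholesterol handling also moved in both directions. NPC1, the membrane protein that carries cholesterol out of the lysosome, had 318, 233 and 307 in RASv12 samples, against 109, 93.3 and 123 in control samples. Each RASv12 sample was brighter than every control sample, and NPC1 rose by 1.28 ± 0.15 with adjusted p = 0.0011, a 2.64-fold higher mean. NPC2, the soluble protein that hands cholesterol to NPC1, had 729, 599.8 and 758 in RASv12 samples, against 852, 943 and 970.0 in control samples. NPC2 fell by 0.43 on the log2 scale (SE 0.13, adjusted p = 0.044), and leaving out any sample but RASv12 replicate 3 ended the call, with adjusted p from 0.064 to 0.13. The call was lost in 10 of 15 settings in all, which include a pseudocount of 1 (0.12), deposited values (0.052), median centring (0.090) and the replicate block (0.081).

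ABCA1, which exports cholesterol from the cell, had 196, 189 and 206 in RASv12 samples, against 129, 142 and 136 in control samples. ABCA1 rose by 0.51 ± 0.090 with adjusted p = 0.0064, its second probe set rose by 0.66 ± 0.18, and the third lay within the low controls, so that the mean of all 3 did not pass (0.31, adjusted p = 0.064). SOAT1, which makes cholesterol esters for storage, had 39.7, 70.1 and 77.6 in RASv12 samples, against 47.5, 50.9 and 49.1 in control samples. RASv12 replicate 1 lay below all controls and the other RASv12 samples above them. SOAT1 was at 0.31 with adjusted p = 0.23, and at 0.50 with adjusted p = 0.016 without that replicate.

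Set side by side, the sterol branch had a median log2 change of -0.15 over 15 genes (26.7% called) and the fatty acid and glycerolipid branch -0.082 over 7 (28.6% called), where the median of all genes was 0.020 and 29.1% were called. Both shares of calls were close to that of all genes. The range was -0.83 to 0.63 in the sterol branch and -1.88 to 0.36 in the fatty acid branch, whose ends were SCD and ACLY. Signs were below 0 for 11 of 15 sterol genes and 4 of 7 fatty acid genes, where 5674 of all 11963 genes were below 0. The 11 include MVD, which lay within the low controls on every array. The 8 regulators and handling genes had a median of 0.34, with 4 up, SREBF2 among them, and 2 down (75.0% called). These 6 calls fell to 4 with a pseudocount of 1, deposited values, median centring, the mean of probe sets or the replicate block. Leaving out any 1 control replicate also left 4. No test was made between the branches, since their genes were chosen with earlier results known.

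The same can be read sample by sample, as the median over a branch of each gene's log2 level minus its mean over the 6 samples. For sterol genes this median was -0.12, -0.079 and -0.069 in RASv12 samples, against 0.073, 0.088 and 0.057 in control samples. These did not overlap. Over all genes it was -0.012, -0.0035 and 0.017 in RASv12 samples, against 0.0095, -0.020 and -0.015 in control samples, which did overlap. Taken singly, 41.7% of all genes did not overlap in intensity. For fatty acid and glycerolipid genes it was 0.12, -0.13 and -0.13 in RASv12 samples, against 0.14, -0.12 and 0.20 in control samples, which did overlap. For regulators and handling genes it was 0.22, 0.17 and 0.32 in RASv12 samples, against -0.20, -0.16 and -0.17 in control samples.

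Scaling the arrays to the hybridization controls raised the median of all genes to 0.20, a shift of 0.18, and the branch medians to 0.077 for sterol genes and 0.13 for fatty acid and glycerolipid genes. Both branch medians were below that of all genes with and without this scaling. Their sign and the split of calls turned: 11 members rose and 4 fell, so that 73.3% of called members were rises against 41.7% without this scaling (72.9% against 47.3% for all genes). The 4 falls were ACAT2, SCD, FADS2 and SREBF1. SQLE, DHCR7, ACLY, FASN, LPIN1 and INSIG2 were then called up, with log2 changes from 0.38 to 0.72, and LSS, SC5D and NPC2 lost their calls. INSIG1 (2.26) and NPC1 (1.58) rose under it too.

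**Figure D5:**
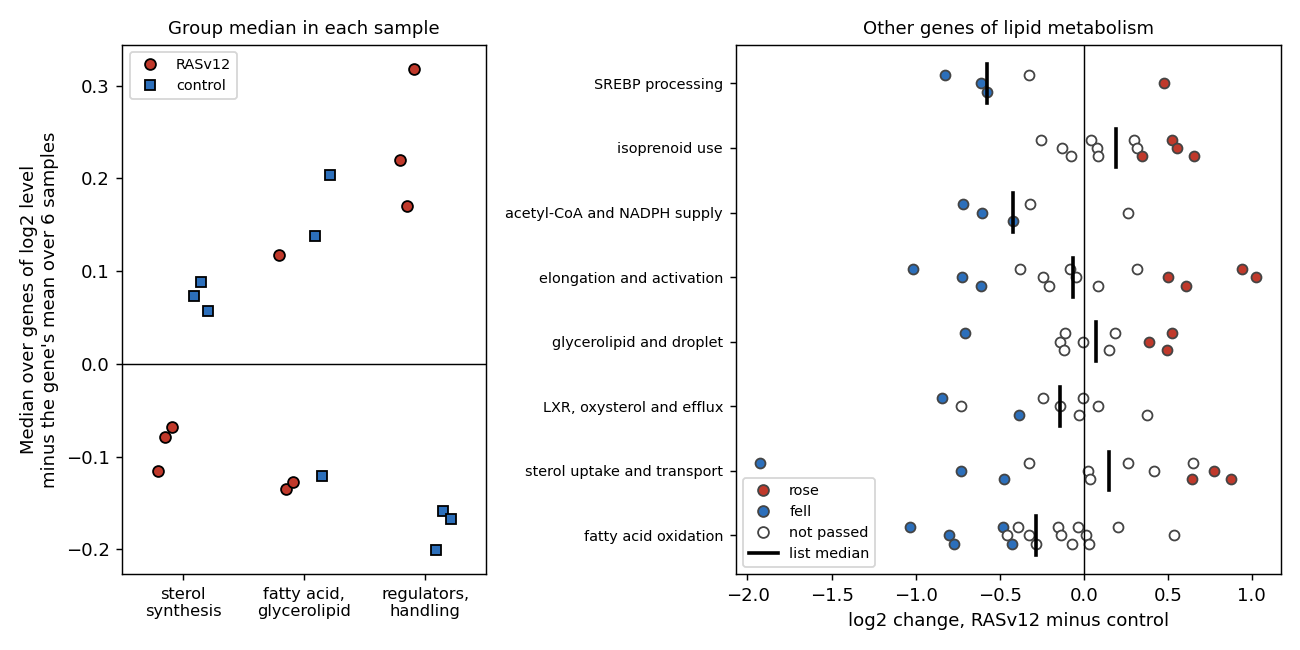
Left, the median over each gene group of log2 level minus the gene's mean over 6 samples, for RASv12 (circles) and control (squares) samples. Right, log2 changes (RASv12 minus control) of genes in 8 further lists of lipid metabolism, with bars at list medians; sterol synthesis circles lie between -0.12 and -0.069, below all squares, and calls run both ways in 4 of the 8 lists.

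Other genes of the pathway were read from 8 lists, in which 84 of 99 genes were measured, 15 rose and 20 fell (41.7% called, against 29.1% of all genes). Of 5 genes that process or degrade components of the SREBP system, 3 fell and 1 rose (80.0% called), with a median of -0.58. MBTPS1, the protease that cuts the precursors first, fell by 0.83 (SE 0.21), ERLIN2, a membrane protein that helps clear sterol-regulated proteins, fell by 0.58 (SE 0.13), and MBTPS2, the protease that cuts next, rose by 0.48 ± 0.14 although its groups overlapped in intensity. The escort SCAP was at -0.33 with adjusted p = 0.24.

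Of 12 genes that use isoprenoids beyond the sterol branch, 4 rose and none fell (33.3% called, near the 29.1% of all genes), with a median of 0.19. PDSS1, which makes the side chain of coenzyme Q, rose by 0.66 ± 0.11 and RABGGTA, a subunit of the enzyme that prenylates RAB proteins, by 0.55 ± 0.095. Of 5 genes that supply acetyl-CoA and NADPH, 3 fell (60.0% called). IDH1, the cytosolic isocitrate dehydrogenase, fell by 0.72 (SE 0.097), SLC25A1, the mitochondrial citrate carrier, by 0.60 (SE 0.10), and ME1, the malic enzyme, by 0.42.

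Elongation and activation genes split, with 4 of 14 up and 3 down, where 13.8% of all genes were up and 15.3% down. In all, 7 of the 14 were called, against 29.1% of all genes. ELOVL4, an elongase of very long chains, had 57.3, 67.0 and 70.8 in RASv12 samples, against 28.7, 25.9 and 20.9 in control samples. ELOVL4 rose (SE 0.10 on the log2 scale, adjusted p = 0.00051). ACSL5, an acyl-CoA synthetase, stood at least 1.52-fold higher, although only 2 of its 3 RASv12 samples lay above the low controls. HSD17B12, a reductase of the elongation cycle, fell by 0.72 (SE 0.097), and ELOVL2 was called down while it lay within the low controls in both groups, so no fold is given. Glycerolipid and droplet genes had 3 of 10 up and 1 down (40.0% called). MGLL, which cuts monoglycerides, rose by 0.52 ± 0.11, PNPLA2, the triglyceride lipase, by 0.50 ± 0.15, and CHKA, a choline kinase, was called down, with 19.3, 16.3 and 28.2 in RASv12 samples, of which 1 lay above the low controls, against 52.0, 42.6 and 40.6 in control samples. PLIN2, a coat protein of lipid droplets, had 651, 584 and 610.3 in RASv12 samples, against 594, 653 and 578 in control samples, which overlapped.

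LXR receptors sense oxysterols and drive ABCA1. In their list 2 of 9 genes fell and none rose (22.2% called, below the 29.1% of all genes): the LXR partner RXRA by 0.84 (SE 0.13) and the LXR gene NR1H3 by 0.39 (SE 0.10). ABCG1, another exporter, lay within the low controls in both groups. Among genes of sterol uptake and transport 3 of 12 rose and 3 fell. That made 6 of 12 called, against 29.1% of all genes (13.8% up and 15.3% down). The lipoprotein receptor LRP8 rose by 0.88 ± 0.091 and the oxysterol binding protein gene OSBPL8 by 0.78 ± 0.12, while CAV1, the coat protein of cholesterol-rich caveolae, fell by 1.92 (SE 0.14) and the receptor LRP1 by 0.73 (SE 0.17). CAV1 had 455, 562 and 582 in RASv12 samples, against 2119, 1981 and 1895 in control samples.

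In the fatty acid oxidation list 5 of 17 genes fell and none rose (29.4% called, close to the 29.1% of all genes), with a median of -0.29. ACAA2, the mitochondrial thiolase, fell by 0.80 (SE 0.14), and ACADS, the short-chain dehydrogenase, was at least 1.17-fold lower. CPT1A, which admits fatty acids to mitochondria, was at -0.13 with adjusted p = 0.61. With scaling to the hybridization controls the split over all 8 lists turned to 27 up and 7 down. Genes called in these lists fell in number to 20 with a pseudocount of 1 and to 23 or 21 without RASv12 replicate 3 or control replicate 3.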

How the data were processed

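The authors deposited 1 table of linear signal intensity per probe set for 6 human Affymetrix arrays. MAS5 is named in the submitters' processing notes, with its version and settings not given in the sources used here. Per the labels, RNA was amplified in 2 rounds. The 2% trimmed mean lay at 100.0 on every array, so the deposited values were scaled, and 48.6% to 54.1% of probe sets per array exceeded the brightest of 27 low bacterial controls (27.98), which served as background. The number of arrays limits precision.

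Of 22215 probe sets beside 68 controls, 19065 had 1 gene symbol, 1043 several and 2107 none, and only the first were named. Symbols were updated by gene identifier through RefSeq (GRCh38.p14), and 12 found no match. Intensities were transformed as log2(value + 16) and quantile normalized, and groups were compared with limma 3.58.1 in R 4.3.3 over all probe sets, with Benjamini-Hochberg adjustment over 11963 genes or, for single probe sets, over all probe sets. "At least" folds set the brighter group's mean log2 intensity against the background level where all 3 samples of the other group lay within it. The fit was tested on simulated data. Members and lists were chosen with earlier results of these data known. All measured members are named, with the fibroblast list and HRAS as checks. Genes named from the further lists are the called genes with the largest moderated t, up to 2 in each direction, and others named there were chosen after their values were seen.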

Additional observations from a re-analysis of the deposited data

How the results depend on the processing

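Each member was recomputed under 15 settings: pseudocounts of 1 and 64, values as deposited, median centring, scaling to 18 hybridization controls, leaving out the dimmest 25% of genes, the mean of all probe sets, the brightest probe set without an s or x suffix where a gene has one, the replicate number as a block, and leaving out each sample in turn. Of 450 values, 382 kept direction and call, 31 lost the call, 17 gained it and 20 changed sign. ACAT2, FADS2, SREBF1, INSIG1 and NPC1 kept theirs in all 15, out of 12 called members, but ACAT2, FADS2 and SREBF1 have 1 probe set each, so the settings on probe sets did not bear on them. In the suffix setting 11 of the 30 members had only suffixed probe sets and kept them. The number of members called ran from 9 to 15. Sign changes were those of SREBF2 (-0.011), DHCR7 (-0.058), EBP (0.010) and ACSL1 (0.096) with the mean of all probe sets, SREBF2 (-0.38) and ACSL1 (0.27) with the suffix setting, and FDPS (0.024), MVD (0.049), PMVK (0.077), ACSL1 (0.13), IDI1 (0.16), MSMO1 (0.24) and EBP (0.25) with scaling to the hybridization controls, none of them called under that setting. Leaving out 1 sample changed the sign of EBP (range -0.093 to 0.043), TM7SF2 (-0.13 to 0.21) and MVD (-0.23 to 0.15), all uncalled.

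The suffix setting left 2 sterol genes called in place of 4 (LSS, and ACAT2 with its suffixed probe set), and scaling to the hybridization controls called 5 fatty acid and glycerolipid genes in place of 2. The sterol median of -0.15 became -0.19 and -0.098 with pseudocounts of 1 and 64, 0.077 with that scaling and -0.087 with the mean of probe sets, and ran from -0.22 to -0.11 when 1 sample was left out. The fatty acid and glycerolipid median of -0.082 became 0.13, 0.096 and 0.25 with that scaling, the mean of probe sets and the suffix setting, in which SCD, FADS2, ACLY and FASN kept suffixed probe sets, and ran from -0.21 to -0.00052 when 1 sample was left out. Calls in the 8 further lists numbered 35, and 20 with a pseudocount of 1, 21 with the replicate block and 21 to 26 when 1 sample was left out. Same-numbered samples did not deviate together (correlations of -0.21, -0.046 and -0.065), so the numbers were not taken as pairs. The replicate block gave 2601 called genes in place of 3482 and 11 called members in place of 12: SREBF2 (0.10) and NPC2 (0.081) lost their calls and HSD17B7 (0.047) gained one, by adjusted p. The causes were not tested. Dim genes, MVD and TM7SF2 among them, cannot be resolved at this signal over background.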
